A study of Rattus norvegicus with 13 samples.

Results

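The defence against oxidative stress was followed in maternal rat liver during gestation through 9 genes: Hmox1, Nqo1, Gclc, Gclm, Gpx1, Gsr, Sod1, Sod2 and Txnrd1. Their members on the array were all probe sets whose annotation named 1 of these genes alone, which gave 20 of the 8740 probe sets other than controls. Of these, 19 were bright enough to be tested, among 5244 tested in all, and each of the 9 genes kept at least 1. The samples were RNA of time-mated female Sprague Dawley rats, hybridised to 13 one-colour Affymetrix arrays. Energy supply was 220 or 160 kcal daily, counted for each kg of body mass raised to the power 0.75, and ethanol, where given, 12 g daily per kg. The fully fed controls, TEN-220 (n = 3), had no ethanol, and EtOH-220 (n = 3) had ethanol at the same 220 kcal. The undernourished controls, TEN-160 (n = 3), had 160 kcal and no ethanol, and EtOH-160 (n = 4) had ethanol at 160 kcal. Whether each array stands for 1 animal or pooled animals is not in the labels, so p-values measure only the spread between these samples, which may be technical. The liver label was checked on 7 hepatocyte markers, all of them above background. Albumin, the main plasma protein of hepatocytes, had group levels of 34604 to 38438.

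Cells meet reactive oxygen with enzymes that remove it and with small molecules that are oxidised in place of proteins and lipids. Superoxide dismutases turn superoxide into hydrogen peroxide, which glutathione peroxidases reduce with glutathione, and glutathione and thioredoxin are then recharged by reductases that use NADPH. Many of these genes are induced by the transcription factor Nrf2 through a short DNA motif, the antioxidant response element. In liver, the oxidation of ethanol is a known source of reactive oxygen.

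The core of that element was searched in promoters, because many genes of this defence are induced through it. The motif was TGACNNNGC on both strands, in windows of 300 bases from 250 before to 50 after an annotated start (RefSeq, build GRCr8). The reference held 8 such windows for 7 of the 9 genes. It held none for Hmox1 and Gsr, which were therefore not searched, nor was sequence outside the windows. Of the 8 windows, 3, for Sod2, Gclm and Txnrd1, had a match. Of all 33469 windows 12.1% had one. In each of the 3 the match lay on the strand opposite to the gene, so that the capitals below, which mark it, read as its reverse complement. The whole window is shown for Sod2, which was called with the 1 probe set it has, and 60 bases around the match for the others.
Sod2 (chr1:50050119-50050418, minus strand, match 35 to 27 bases before the start): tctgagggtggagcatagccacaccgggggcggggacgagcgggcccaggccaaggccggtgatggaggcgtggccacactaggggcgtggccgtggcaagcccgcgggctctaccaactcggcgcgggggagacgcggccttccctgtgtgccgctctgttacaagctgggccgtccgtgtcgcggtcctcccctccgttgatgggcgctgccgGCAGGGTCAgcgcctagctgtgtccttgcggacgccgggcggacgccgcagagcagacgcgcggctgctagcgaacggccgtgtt
Gclm (chr2:213031937-213031996, plus strand, match 172 to 164 bases before the start): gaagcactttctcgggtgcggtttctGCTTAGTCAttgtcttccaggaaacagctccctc
Txnrd1 (chr7:22755949-22756008, minus strand, match 78 to 70 bases before 1 of 2 starts, which lies within the gene's annotated span): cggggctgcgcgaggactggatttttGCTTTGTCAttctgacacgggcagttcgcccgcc
A match is a run of letters and does not show that a factor binds there.

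The arrays differed in ways that touch every result. TEN-220 replicate 1 had not been scaled to the common mean of the other 12, and was brought to their distribution. The ratio of the spiked controls BioDn-5 and BioDn-3 lay between 0.422 and 0.497 in TEN-160 and between 0.132 and 0.210 on the remaining 10 arrays. What sets these arrays apart and the diet of TEN-160 cannot be told apart. The ratio of 3' to 5' signal of GAPDH, which rises as RNA degrades, was 1.52 to 2.32 in TEN-220, 1.04 to 1.47 in EtOH-220, 1.03 to 1.24 in TEN-160, and in EtOH-160 it was 1.50 to 1.73. In bulk liver, fewer cells of a type and less RNA per cell cannot be told apart. Summed signals of 13 Kupffer cell and macrophage markers, all above background, were 11951 to 13385 in TEN-220, 9478 to 14589 in EtOH-220, 12679 to 14567 in TEN-160, and for EtOH-160 they were 9348 to 11416. Those of 5 erythroid markers were 13864 to 18526, 16158 to 24495, 13077 to 24944 and 8554 to 15277 in the same order. Sums of 8 endothelial and stellate cell markers, 7 of them above background, reached 4484 in TEN-160 (1952 at the lowest) and at most 2284 in the other groups. For 2 neutrophil markers, 1 of them above background, they were 80.3 to 942 in TEN-160 and at most 299.8 elsewhere. Among these marker lists and that of hepatocytes, the comparisons that hold the members' calls also called the following in limma. With ethanol at 160 kcal Cd14 was higher, and RT1-Ba (−1.42), RT1-Bb, RT1-Da and Col1a1 (−2.29) were lower. Also lower were S100a9, whose EtOH-160 level was below background, and the hepatocyte marker Ttr (−0.36). Col1a1 was called on M27207mRNA_s_at, whereas its probe set rc_AI231472_s_at gave −0.14 (limma adjusted p = 0.861). For TEN-160 minus TEN-220 RT1-Ba (0.93) and Kdr (1.55) were higher, and the interaction of RT1-Ba was −1.77. Their part in the members' results was not tested.

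Hmox1 encodes the inducible haem oxygenase, which opens the haem ring and releases iron, carbon monoxide and biliverdin. Its signal was highest in the fully fed controls and lowest in the fully fed rats given ethanol, and the effect of ethanol differed between the energy levels. On probe set rc_AI179610_at the normalized signals in TEN-220 were 1219, 1666 and 1979. In EtOH-220 they were 554, 764 and 562. In TEN-160 they were 987, 519 and 1525, and in EtOH-160 they were 1241, 1322, 1039 and 1201. All 3 EtOH-220 arrays lay below all of TEN-220 and EtOH-160, whereas TEN-160 spanned the range of EtOH-220 and EtOH-160.

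The second probe set, J02722cds_at, gave the same order of TEN-220 and EtOH-220. Its signals were 490, 577 and 741 in TEN-220 and 91.8, 195 and 197 in EtOH-220. In TEN-160 they were 409, 231 and 584, and in EtOH-160 they were 376, 400, 311 and 319. Here EtOH-220 lay below all other 10 arrays. Pearson's r between both probe sets over the 13 arrays was 0.896 on the log2 scale, a description that shares array and normalization.

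**Figure D1:**
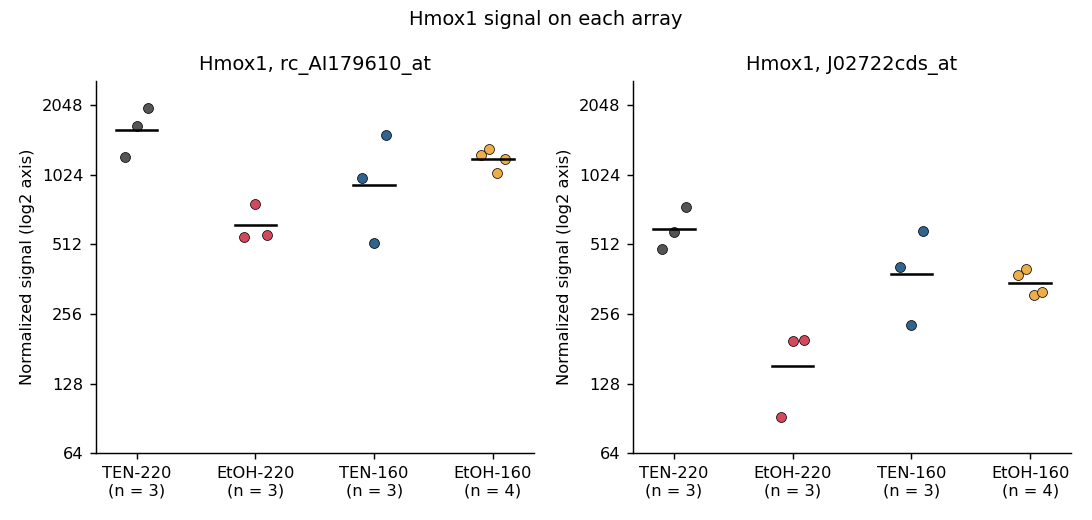
Normalized signal of Hmox1 (log2 axis) on each of the 13 arrays, by group, for both probe sets; bars are geometric group means. EtOH-220 has the lowest mean on each (620 and 152), and TEN-160 spreads from 519 to 1525 and from 231 to 584.

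The effect of ethanol on fully fed rats (EtOH-220 minus TEN-220) was −1.36 on the log2 scale on rc_AI179610_at (SE 0.310) and −1.96 on J02722cds_at (SE 0.338), folds of 2.57 and 3.90. Neither passed in limma, at adjusted p = 0.194 and 0.0504, although J02722cds_at had the fifth smallest p of all probe sets. Without the TEN-160 arrays, whose spread enters the shared variance, both were called lower, with changes of −1.37 and −2.01 (SE 0.204 and 0.289, limma adjusted p = 0.0338 for both). That fit was added after seeing the data, and no other alternative called rc_AI179610_at. With only the 2 groups compared in the fit, neither passed (SE 0.225 and 0.321, limma adjusted p = 0.146 for both). For J02722cds_at the adjusted p over all alternatives ranged from 0.0129 to 0.303, and for rc_AI179610_at from 0.0338 to 0.470. J02722cds_at also passed when EtOH-220 replicate 2 (0.0336), TEN-160 replicate 2 (0.0347) or TEN-160 replicate 3 (0.0391) was left out.

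In undernourished rats, ethanol (EtOH-160 minus TEN-160) gave 0.38 (SE 0.290) on rc_AI179610_at and −0.12 (SE 0.316) on J02722cds_at, with groups that overlapped and limma adjusted p of 0.380 and 0.824. The difference between the ethanol effects, the interaction, was itself called on both: 1.74 (SE 0.424, limma adjusted p = 0.0283) and 1.84 (SE 0.463, adjusted p = 0.0311). Leaving out an array ended this call on rc_AI179610_at when it was replicate 2 or 3 of TEN-220, replicate 1 or 3 of EtOH-220, or EtOH-160 replicate 2, at adjusted p of 0.0511 to 0.0658 and changes of 1.58 to 1.69. On J02722cds_at the same held for any of the TEN-220 arrays, EtOH-220 replicate 1, TEN-160 replicate 2 and EtOH-160 replicate 1 or 2, at 0.0530 to 0.0665 and changes of 1.48 to 1.98. With no filter on dim probe sets neither was called (adjusted p = 0.0693 and 0.0740), and over all alternatives the adjusted p ranged from 0.00692 to 0.459 and from 0.0109 to 0.469.

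Low energy supply in ethanol-fed rats (EtOH-160 minus EtOH-220) gave 0.95 (SE 0.290) and 1.20 (SE 0.316). The groups did not overlap on either probe set, but limma's adjusted p was 0.204 and 0.126. Without ethanol (TEN-160 minus TEN-220) the changes were −0.79 (SE 0.310) and −0.64 (SE 0.338), adjusted p = 0.0970 and 0.212. Without TEN-160 replicate 3, the array with the highest Hmox1 signals of its group, rc_AI179610_at was called lower, at −1.16 and a limma adjusted p of 0.0157, as it was with median-centred arrays (−1.09, 0.0171). Its adjusted p ranged from 0.0157 to 0.763 over all alternatives. Both changes together (EtOH-160 minus TEN-220) gave −0.41 and −0.77 (SE 0.290 and 0.316, adjusted p = 0.595 and 0.298).

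The GAPDH 3'/5' ratio moved with Hmox1 in part. The groups with the higher ratios, TEN-220 and EtOH-160, were above EtOH-220 in Hmox1 on every array of both probe sets. TEN-160 had ratios as low as EtOH-220. Its replicate 2, at a ratio of 1.18, had low Hmox1 signals of 519 and 231, and its replicate 3, at 1.03, had high ones of 1525 and 584. The same ratio for actin was 1.97 to 3.00 in TEN-220, 1.93 to 2.18 in EtOH-220, 1.91 to 2.96 in TEN-160 and, in EtOH-160, 1.77 to 2.31. The part of these ratios in the result was not tested.

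**Figure D2:**
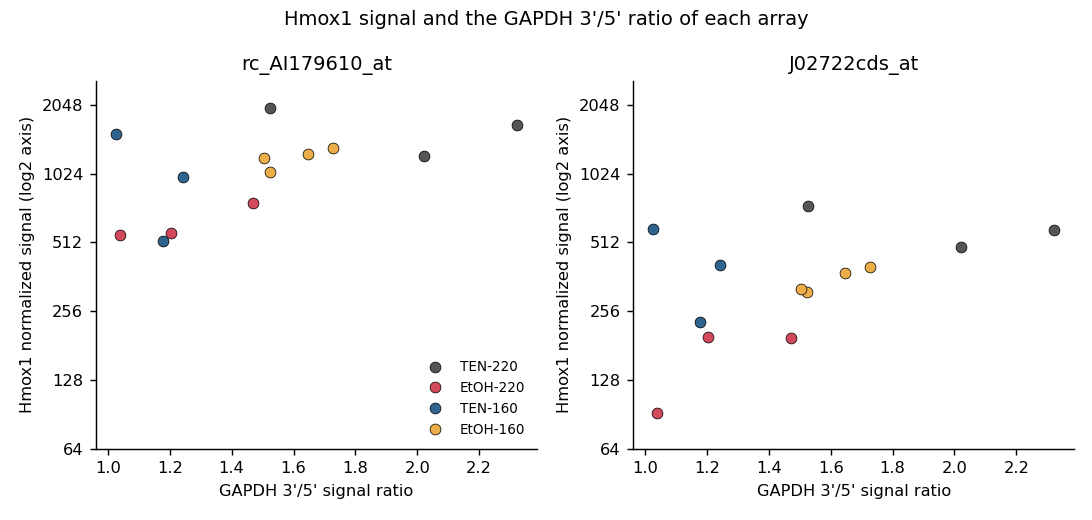
Normalized Hmox1 signal (log2 axis) against the GAPDH 3'/5' signal ratio of each of the 13 arrays, for both probe sets; colours give the group. EtOH-220 (ratios of 1.04 to 1.47) is low on both panels, and TEN-160 (1.03 to 1.24) reaches 1525 and 584.

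Nqo1 encodes a quinone reductase that works with NADPH or NADH and is a standard readout of Nrf2. Its brighter probe set, J02679_s_at, was highest in TEN-220 (1230, 1613 and 2794) and lowest in EtOH-160 (590, 1234, 741 and 956). EtOH-220 had 847, 1424 and 1202, and TEN-160 had 1306, 1231 and 1071. EtOH-160 minus TEN-220 was −1.06 (SE 0.291, limma adjusted p = 0.0808), with groups that overlapped by 1 array on each side. No comparison called this probe set in the fit as described, but array weights called the last one (−0.95, adjusted p = 0.0476).

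The dimmer Nqo1 probe set, M58495mRNA_at, was called. Its signals were 111, 115 and 190 in TEN-220, 84.8, 90.1 and 83.9 in EtOH-220, 57.6, 13.9 and 34.8 in TEN-160, and 80.8, 83.7, 69.5 and 66.3 in EtOH-160. All TEN-220 arrays were higher, and all TEN-160 arrays lower, than those of the other groups. The background, a signal of 44 set from controls for foreign sequences, was not reached on 2 of the 3 TEN-160 arrays. TEN-160 minus TEN-220 fell by 2.15 (SE 0.423, limma adjusted p = 0.00407), which is at least 2.79-fold lower with these arrays at the background. EtOH-160 minus TEN-160 rose by 1.30 (SE 0.396, adjusted p = 0.0310), at least 1.55-fold. That rise lost its call without TEN-160 replicate 2 (0.75, adjusted p = 0.106), TEN-160 replicate 3 or EtOH-160 replicate 1, 2 or 3. Of the 24 alternatives that tested it, 11 ended the call, and its adjusted p ranged from 0.00831 to 0.653 over all of them. On J02679_s_at the same comparisons gave −0.56 and −0.50. The interaction on M58495mRNA_at, at a limma adjusted p of 0.0586, was called with median-centred arrays, with a floor at the 25th percentile and without TEN-160 replicate 1 (0.0472, 0.0379 and 0.0189).

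Glutathione is made in 2 steps, and the first is carried out by a ligase with a catalytic subunit, Gclc, and a regulatory subunit, Gclm. Gclc was not called in any comparison of the fit as described. Its signals were 475, 374 and 248 in TEN-220, 302, 291 and 292 in EtOH-220, 268, 296 and 178 in TEN-160, and 212, 230, 250 and 134 in EtOH-160. All EtOH-160 arrays lay below all of EtOH-220 (−0.55, SE 0.262, limma adjusted p = 0.459), and EtOH-160 minus TEN-220 was −0.82 (SE 0.262, adjusted p = 0.151), which array weights called (−0.95, adjusted p = 0.0281).

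The 3 probe sets of Gclm did not move alike. On rc_AI233261_i_at, whose suffix marks a set with an incomplete number of probes, TEN-160 was highest, with 551, 235 and 425. TEN-220 had 134, 126 and 91.7, EtOH-220 had 258, 56.3 and 82.6, and EtOH-160 had 72.1, 133, 183 and 69.8. TEN-160 lay above TEN-220 and EtOH-160 and overlapped EtOH-220 by 1 array. It rose by 1.72 in TEN-160 over TEN-220 (SE 0.516, limma adjusted p = 0.0349) and fell by 1.85 in EtOH-160 against TEN-160 (SE 0.482, adjusted p = 0.0152). The rise lost its call without any 1 TEN-220 array or without TEN-160 replicate 1 or 3, at adjusted p up to 0.118, and the fall without TEN-160 replicate 1 (0.0656). For the rise the adjusted p ranged from 0.00226 to 0.118 over all alternatives and for the fall from 0.00393 to 0.0656.
The brightest Gclm probe set, S65555_at, had the opposite signs in both comparisons, −0.49 and 0.61 (SE 0.276 and 0.258, limma adjusted p = 0.244 and 0.104). Its 13 signals lay between 184 and 422, and its interaction was called only without TEN-220 replicate 3 (1.27, adjusted p = 0.0492). S65555_g_at, with 0.34 and −0.34, was not called either.

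Gsr encodes the reductase that returns oxidised glutathione to its reduced form. Its brightest probe set, rc_AA893189_at, was nearly level: all 13 signals lay between 338 and 550, group levels between 383 and 408, and the changes of the 6 comparisons between −0.10 and 0.05. The limma SE of the 5 pairwise changes was 0.184 or 0.197. The dimmest, U73174_g_at, had 101, 150 and 64.1 in TEN-220, 72.7, 57.9 and 132 in EtOH-220, 47.3, 72.6 and 29.2 in TEN-160, and 200, 153, 107 and 98.3 in EtOH-160. EtOH-160 lay above TEN-160, of which 1 array was below background, and the others overlapped. It rose by 1.53 with ethanol at 160 kcal (SE 0.407, limma adjusted p = 0.0170), a call that ended without TEN-160 replicate 3 (1.21, 0.0745; range of adjusted p over alternatives 0.0113 to 0.372). The third probe set, U73174_at, gave 0.20 in this comparison (SE 0.263, adjusted p = 0.632).

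Gpx1, the main cytosolic glutathione peroxidase, is a selenium protein. Neither of its tested probe sets was called in the fit as described, but both passed under some alternatives. On X12367cds_s_at the signals were 20629, 20934 and 18699 in TEN-220, 22786, 21173 and 21445 in EtOH-220, 21445, 24219 and 17289 in TEN-160, and 19079, 17007, 16497 and 18325 in EtOH-160. All EtOH-160 arrays were below all of EtOH-220 (−0.30, SE 0.116, limma adjusted p = 0.347). On X07365_s_at all EtOH-160 arrays were below all of TEN-160 (−0.34, SE 0.119, adjusted p = 0.0540). In 1 alternative no array was quantile normalized, and only TEN-220 replicate 1 was rescaled, by its trimmed mean. There both probe sets were called lower with ethanol at 160 kcal (−0.58 on X07365_s_at and −0.48 on X12367cds_s_at, limma adjusted p = 0.00802 and 0.0223). X07365_s_at was also called with 60% of the probe sets left out, with array weights and without EtOH-220 replicate 1 (adjusted p of 0.0208 to 0.0408), and X12367cds_s_at without TEN-160 replicate 3 (0.0373). Their highest signal over their lowest was 1.47 and 1.46 over the 13 arrays. The third probe set, M21210_i_at, had signals of at most 23.0, below background on all 13 arrays, and was not tested.

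Superoxide dismutases come as a copper and zinc enzyme of the cytosol, Sod1, and a manganese enzyme of mitochondria, Sod2. Sod2 had 1 probe set, Y00497_s_at, with signals of 184, 208 and 210 in TEN-220, 254, 344 and 304 in EtOH-220, 330, 407 and 319 in TEN-160, and 322, 266, 232 and 230 in EtOH-160. Every array of the other 3 groups lay above all of TEN-220. It rose in TEN-160 over TEN-220, by 0.80 (SE 0.189, limma adjusted p = 0.0105), and that call held with each single array left out, at changes of 0.70 to 0.88.
With ethanol at 220 kcal the change of Sod2 was 0.58 (SE 0.189, adjusted p = 0.347), with groups that did not overlap, and at 160 kcal it was −0.43 (SE 0.176, adjusted p = 0.0987). The interaction was called, at −1.004 (SE 0.258, limma adjusted p = 0.0330), opposite in sign to that of Hmox1. It was not called without any 1 of the TEN-220 arrays, replicate 2 or 3 of EtOH-220, TEN-160 replicate 2, or EtOH-160 replicate 2, 3 or 4, at changes of −1.04 to −0.90 and adjusted p of 0.0533 to 0.0891. Median-centred arrays also ended it (−0.82, adjusted p = 0.0558, within a range of 0.0142 to 0.266 over all alternatives).

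Of the 3 probe sets of Sod1, only Y00404_s_at was called. Y00404_s_at had 4068, 4158 and 6404 in TEN-220, 7075, 5168 and 6373 in EtOH-220, 2844, 1911 and 3181 in TEN-160, and 3112, 5080, 6471 and 5535 in EtOH-160. TEN-160 lay below TEN-220 and EtOH-220, and 1 array of EtOH-160 lay within it. It fell by 0.88 in TEN-160 against TEN-220 (SE 0.271, limma adjusted p = 0.0379) and rose by 0.92 with ethanol at 160 kcal (SE 0.254, adjusted p = 0.0203). The fall lost its call without any 1 TEN-220 array or TEN-160 replicate 1 or 2, at adjusted p up to 0.145. The rise lost it without TEN-160 replicate 2 or EtOH-160 replicate 3 or 4, at up to 0.0871. With no filter neither was called (0.0909 and 0.0539). Over all alternatives the adjusted p ranged from 0.00720 to 0.725 for the fall and from 0.00394 to 0.420 for the rise.
On the brightest Sod1 probe set, M21060_s_at, these comparisons gave −0.53 and −0.01 (SE 0.261 and 0.244), neither called. TEN-220 (14214, 15097 and 13308) lay above all other arrays. TEN-160 replicate 3 (6586) and EtOH-160 replicate 3 (5858) were far below the others, which had 11028 to 15097. M25157mRNA_i_at gave −0.82 for TEN-160 minus TEN-220 and 0.80 with ethanol at 160 kcal (SE 0.584 and 0.546). Neither was called (limma adjusted p = 0.357 and 0.319). On this probe set EtOH-220 replicate 1 had 13139, whereas the other 12 arrays had 825 to 3181. For TEN-160 minus TEN-220 all 3 probe sets of Sod1 had a negative change.

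Txnrd1, the cytosolic thioredoxin reductase, is also a selenium protein. Probe set rc_AA891286_at had 1518, 1472 and 1406 in TEN-220, 1358, 1005 and 788 in EtOH-220, 911, 929 and 1287 in TEN-160, and 952, 1253, 1257 and 912 in EtOH-160. TEN-220 lay above every other array, with changes of −0.52, −0.51 and −0.44 for EtOH-220, TEN-160 and EtOH-160 (SE 0.215, 0.215 and 0.201, limma adjusted p = 0.475, 0.122 and 0.356). These 3 values share the TEN-220 arrays. The other probe set, U63923_at, with signals of 205 to 474, gave 0.14, −0.28 and −0.12, and no comparison called Txnrd1 in the fit as described. For TEN-160 minus TEN-220, rc_AA891286_at was called with median-centred arrays (−0.82, limma adjusted p = 0.0242) and with array weights (−0.60, 0.0293).

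**Figure D3:**
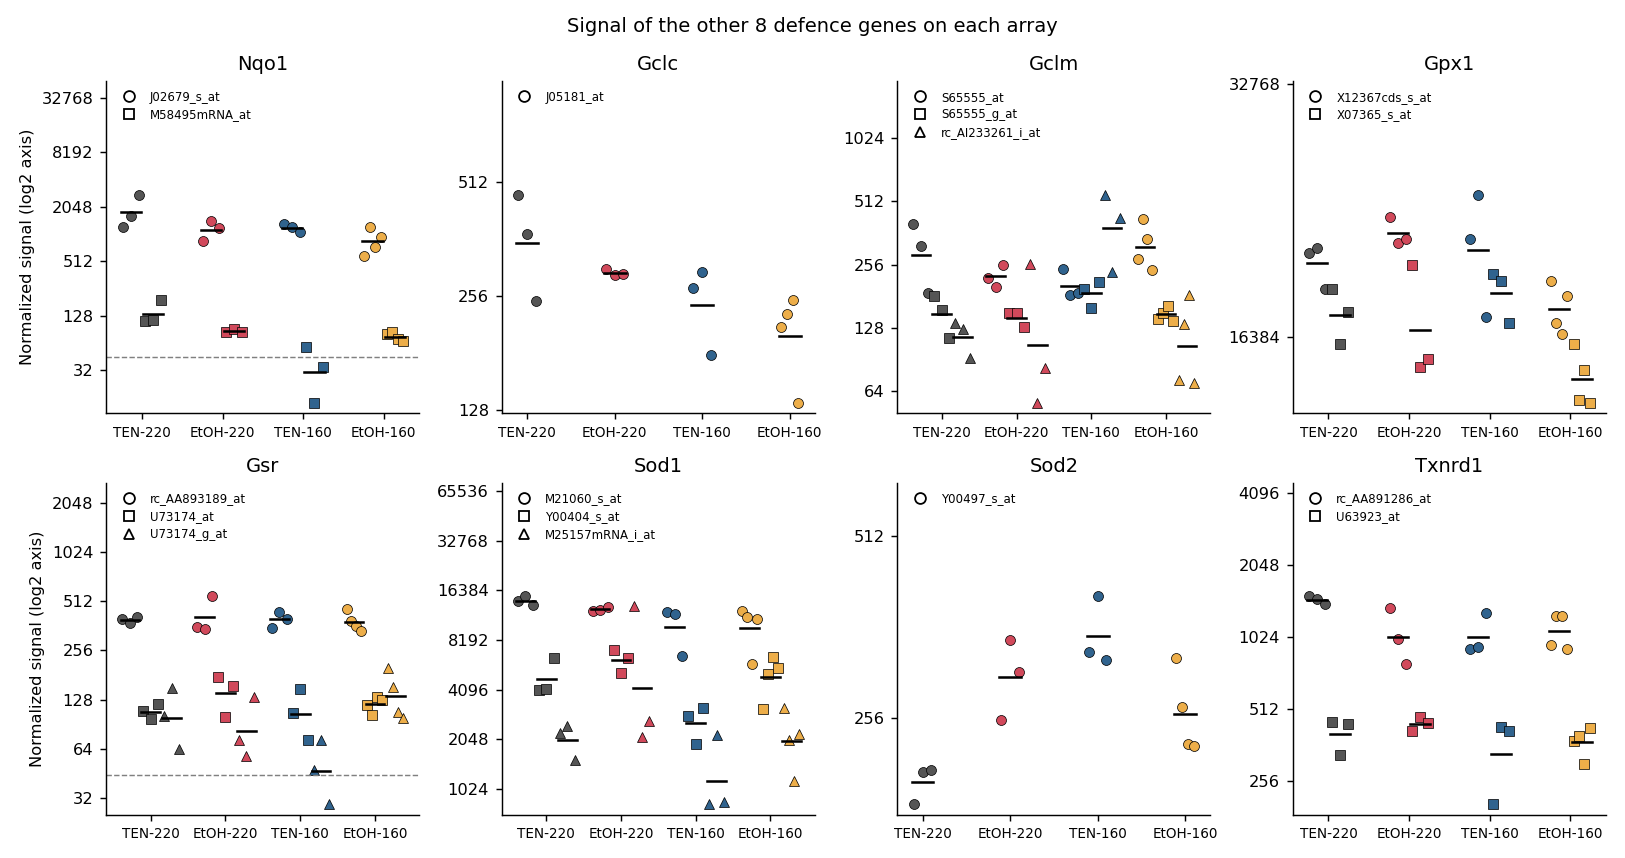
Normalized signal (log2 axes, a scale for each gene) of the other 8 genes on each of the 13 arrays, by group, with a marker shape for each tested probe set, bars for geometric group means and a dashed line at the background of 44. Sod2 is lowest on the 3 TEN-220 arrays (184 to 210), and probe sets of Gclm, Gsr and Sod1 order the groups differently.

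Every call among the 19 probe sets lay in a comparison that uses TEN-160. With ethanol at 160 kcal 3 rose and 1 fell, 21.1% of the members, against 22.3% of all 5244 tested. With quantile normalization of all arrays replaced by trimmed-mean scaling of TEN-220 replicate 1 alone, 2 rose and 3 fell there. Both Gpx1 probe sets were then called and Nqo1 was not. Low energy without ethanol raised 2 and lowered 2, 21.1% against 17.8% of all. In the interaction 3 were called, 2 for Hmox1 and 1 for Sod2, 15.8% against 7.13% of all. The comparisons without TEN-160 called none of the 19: ethanol at 220 kcal called 0.0191% of all probe sets, low energy with ethanol 0.286%, and ethanol and low energy together 2.23%. An unadjusted p under 0.05 was reached in these 3 by 4, 3 and 5 members in limma, and by 9.99%, 11.1% and 13.8% of all tested. Without the TEN-160 arrays 2, 0 and 0 members were called, and 0.0953%, 0.229% and 2.23% of all. With the values as deposited, where TEN-220 replicate 1 is unscaled, 1, 1 and 0 members stayed called in the 3 comparisons with TEN-160, both of them for Gclm. Over all tested probe sets, the calls with ethanol at 160 kcal fell there from 1168 to 107.

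Groups that did not overlap were found with ethanol at 220 kcal on 7 members (36.8%, against 17.8% of all tested) and with ethanol at 160 kcal on 4 (21.1% against 31.1%). For TEN-160 minus TEN-220 there were 6 (31.6% against 36.5%), for low energy with ethanol 6 (31.6% against 10.2%), and for both changes together 6 (31.6% against 16.8%). The comparisons share groups, so these counts are not independent of each other.

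The median change of the members was −0.12 with ethanol at 220 kcal, where the median of all tested was −0.04. It was −0.51 for TEN-160 minus TEN-220, with 13 of 19 changes negative and a median of all of −0.03. For EtOH-160 minus TEN-220 it was −0.14 against −0.02, for low energy with ethanol −0.20 against 0.00, and with ethanol at 160 kcal −0.01 against 0.02. On 4 of the 19, all TEN-220 arrays were on 1 side of the other 10 (Nqo1, Sod1 and Txnrd1 above, Sod2 below), as on 2.86% of all tested probe sets. EtOH-220 stood apart in this way on 1 member (1.16% of all), TEN-160 on 1 (15% of all) and EtOH-160 on 0 (1.98% of all).
Of the 7 genes with several tested probe sets, all probe sets had 1 sign for 3 genes with ethanol at 220 kcal, 2 with ethanol at 160 kcal and 5 for TEN-160 minus TEN-220. The Hmox1 pair had 1 sign in 5 of the 6 comparisons, all but ethanol at 160 kcal.

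**Figure D4:**
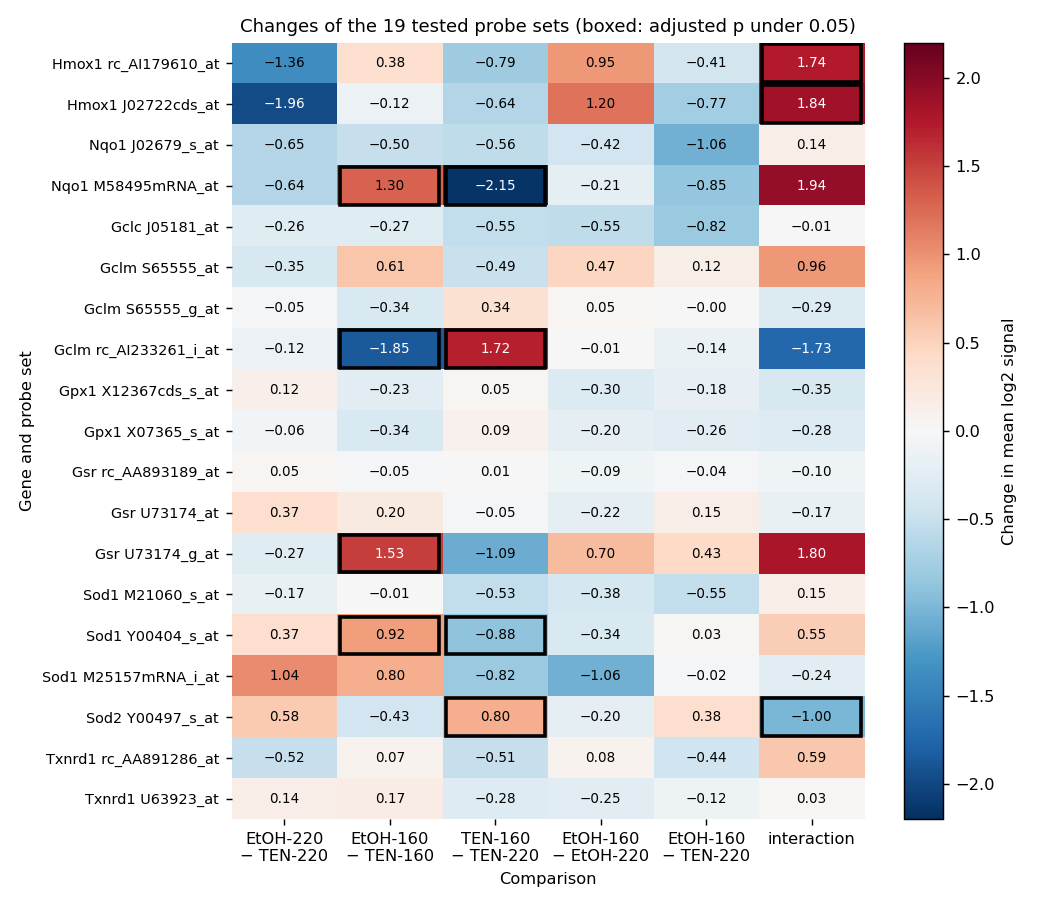
Change in mean log2 signal of the 19 tested probe sets (rows) in the 6 comparisons (columns), red for higher and blue for lower; boxes mark an adjusted p under 0.05 in limma. The 11 boxed values lie in the columns that use the TEN-160 arrays.

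A list of 70 other genes covered haem and peroxide handling, glutathione, thioredoxin, electrophile removal, NADPH supply, their regulators and metallothioneins. Of these, 46 were on the array, and 44 of them, with 71 probe sets, were tested. No metallothionein was among the tested genes. With ethanol at 220 kcal 0 of 71 were called, against 0.0191% of all tested. Low energy in ethanol-fed rats also called 0 of 71, against 0.286% of all. With ethanol at 160 kcal 9 rose and 5 fell, 19.7% against 22.3% of all tested (median change of 0.08, against 0.02 for all). For TEN-160 minus TEN-220 7 rose and 5 fell, 16.9% against 17.8% (−0.02 against −0.03). EtOH-160 minus TEN-220 called 2 (2.82% against 2.23%), both for Cth, which makes cysteine, a building block of glutathione. They rose by 0.99 and 0.74 (SE 0.219 and 0.166, limma adjusted p = 0.0331 and 0.0361). With ethanol at 220 kcal Cth had 1.16 and 1.07 (SE 0.234 and 0.178, adjusted p = 0.0980 and 0.0504).

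With ethanol at 160 kcal the 5 smallest p belonged to both probe sets of Idh1 and to Akr7a2, Slc3a2 and Sod3. Idh1 makes NADPH in the cytosol. Its probe set rc_AA944025_at was below background on all 3 TEN-160 arrays (group level of 22.3, against 180 in EtOH-160), so the rise was at least 4.09-fold (limma adjusted p = 0.000347). On rc_AA892314_at Idh1 fell by 0.78 (SE 0.109, adjusted p = 0.000424). Akr7a2, an aldehyde reductase, rose by 0.86, Slc3a2, the shared chain of amino acid exchangers that include the cystine carrier, by 1.26, and Sod3, the dismutase outside cells, by 1.10 (SE 0.178, 0.272 and 0.242, adjusted p of 0.00458 to 0.00642).
For TEN-160 minus TEN-220 they belonged to both probe sets of Idh1, to Gsta4 with 2, and to Cth. Idh1 was at least 5.85-fold lower on rc_AA944025_at, again with TEN-160 below background, and rose by 0.62 on rc_AA892314_at (SE 0.117, limma adjusted p = 0.000213 and 0.003005). Gsta4, a glutathione transferase for lipid aldehydes, rose by 1.37 and 0.80, and Cth by 1.03 on 1 probe set (SE 0.211, 0.161 and 0.178, limma adjusted p of 0.000896 to 0.00466). In the interaction 1 was higher and 3 lower (5.63% against 7.13% of all). Among them were Cth on D17370_g_at and Gsta4 on X62660mRNA_at (−1.35 and −1.26, SE 0.243 and 0.289, limma adjusted p = 0.00701 and 0.0217). Their other tested probe sets, D17370_at and X62660mRNA_g_at, were not called (−0.94 and −0.36, SE 0.321 and 0.221, limma adjusted p = 0.0919 and 0.338). The remaining calls were the pair for Idh1. It was higher on rc_AA944025_at, with no size given because TEN-160 was below background there, and had −0.81 on rc_AA892314_at.

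Catalase, which removes hydrogen peroxide, was not called in any comparison on either tested probe set. With ethanol at 220 kcal Cat had 0.46 and 0.38 (SE 0.288 and 0.390, limma adjusted p = 0.620 and 0.790). Hmox2, the constitutive haem oxygenase, was not called either. Its probe set U05013_at had −0.37 with ethanol at 220 kcal (SE 0.184, adjusted p = 0.531), and an interaction of 0.77 (SE 0.252, adjusted p = 0.0785), while J05405mRNA_s_at had −0.01 in both.

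**Figure D5:**
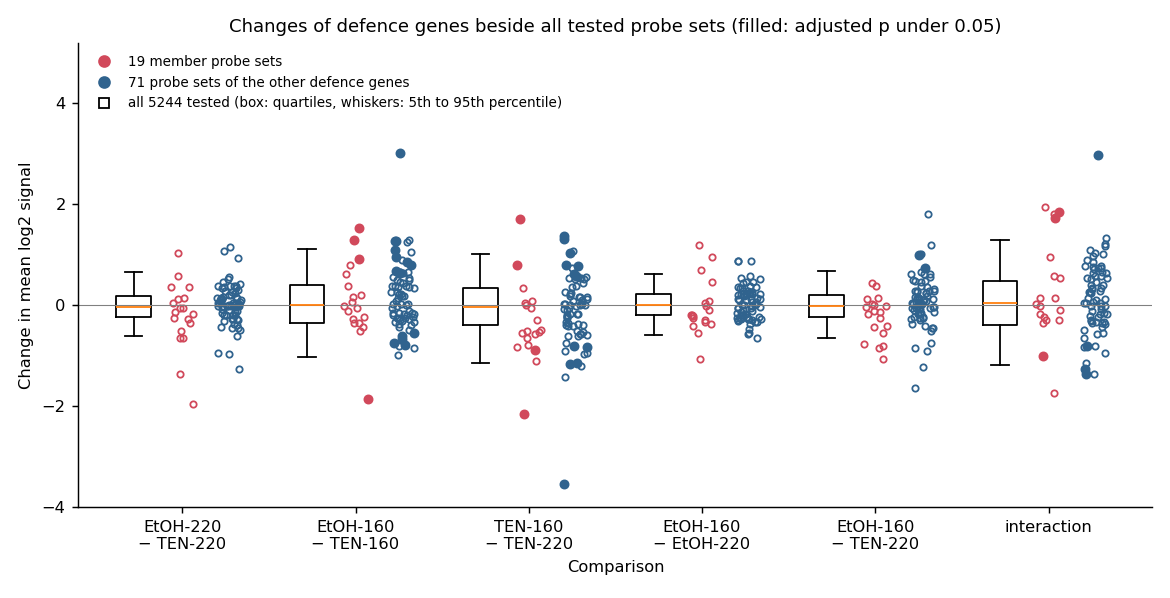
Change in mean log2 signal of the 19 member probe sets (red) and the 71 of the other defence genes (blue) in each comparison, beside a box of quartiles and 5th to 95th percentiles over all 5244 tested; filled points had an adjusted p under 0.05. No point is filled for ethanol at 220 kcal or for low energy with ethanol, where 0.0191% and 0.286% of all tested were called.

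Among tested probe sets of single other genes, the 5 whose log2 signals followed Hmox1 (rc_AI179610_at) most closely over the 13 arrays were for Pam (Pearson's r = 0.814), Col1a1 (0.799), Klk1c3 (0.797), Zswim8 (0.792) and C1qbp (0.791). The probe set for Col1a1 here was rc_AI231472_s_at, not the one called among the markers. All 5 share arrays and normalization with Hmox1 and were picked as the highest of all, so r is a description. For Zswim8 the group levels were 378 in TEN-220, 183 in EtOH-220, 216 in TEN-160 and 268 in EtOH-160, and its interaction was called (1.36, limma adjusted p = 0.0416). Among the members themselves, each with its brightest probe set, r with Hmox1 lay between −0.668 for Gpx1 and 0.535 for Txnrd1.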

How the data were processed

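Hepatic RNA of 13 samples was measured on one-colour arrays. The deposited signals are intensity on a linear scale, which the authors computed with MAS5, per the submitters' processing notes, in a version that these sources do not state. After 59 control probe sets were left out, the 13 arrays were quantile normalized. Signals under the 10th percentile (9.338) were set to it, log2 was taken, and the 40% of probe sets with the lowest mean were left out. Group means were fitted with limma 3.58.1 in R 4.3.3 (lmFit, eBayes with a trend, two-sided, Benjamini-Hochberg over 5244 probe sets in each of 6 comparisons). The call threshold was an adjusted p of 0.05. A change is the difference between 2 group means of log2 signal, its SE is limma's, and levels are geometric means. Of the tested probe sets 4309 name exactly 1 gene, 245 several and 690 none; 4297 of the 4309 were matched to RefSeq by Entrez ID. The background is the signal below which 95% of the values of 19 foreign control probe sets fall. Precision is limited by the number of arrays. The fit was tested on simulated data. Named were all member probe sets, the other defence genes with the 5 smallest p among those called, Cat and Hmox2, and the 5 genes most like Hmox1. The members and lists were chosen with earlier results of these data known. Alternatives covered normalization, floor, filter, variance model, array weights, a replicate block, the samples in the fit and single arrays left out; the fit without TEN-160 was added after seeing the data. Plots were drawn with matplotlib 3.10.9.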

Additional observations from a re-analysis of the deposited data

Results flagged for a closer look

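The interaction of ethanol with energy supply was called for Hmox1 on both probe sets, at 1.74 on rc_AI179610_at and 1.84 on J02722cds_at, and for Sod2 at −1.004. It tests the difference between the ethanol effects at the 2 energy levels itself. Of 24 alternatives, 8, 9 and 12 ended these calls, in the same order. The interaction uses the TEN-160 arrays, which stand apart also in their spiked controls.

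For Sod1 on M21060_s_at, EtOH-160 replicate 3 lay far below the other 3 arrays of its group: its gap to the nearest was 0.858 of the group's range, above Dixon's 95% critical value for 4 samples. Chance flags about 1 in 20 groups. On Y00404_s_at the same array was the highest of its group, at 6471.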

How the results depend on the processing

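Of 675 values of 27 results under the alternatives, 562 kept their direction and side of the threshold, or a count within 1.5 times. Low energy with ethanol called 0 members under all 26 alternatives. With ethanol at 220 kcal 1 member, Hmox1 on J02722cds_at, was called with median-centred arrays, a floor at the 25th percentile, 60% of the probe sets left out, a robust variance model and array weights, 2 without the TEN-160 arrays, and 0 to 1 without single arrays. In the order named, the fits other than those without single arrays called 2, 5, 8, 5, 16 and 5 of all tested probe sets. With ethanol at 160 kcal the count of 4 became 1 with the values as deposited, 2 with no filter, 2 with 60% left out, and 2 to 5 without single arrays. Over all tested probe sets, 1168 calls there became 107, 1093 and 968, and 876 to 1328 without single arrays. For low energy without ethanol the count of 4 became 1 with the values as deposited, 2 with no filter and 2 with 60% left out (both filters change which probe sets are tested), and 2 to 4 without single arrays. For both together, array weights called 2. The interaction count of 3 became 0 with the values as deposited, 1 with no filter, 1 with the replicate block, and 0 to 4 without single arrays. Of the other members' uncalled values, 127 of 2335 changed sign and 14 became called. Among the 27 results, sign changes, none of them called, were those of Hmox1: with ethanol at 160 kcal J02722cds_at had 0.066 with median-centred arrays and −0.49 to 0.19 without single arrays, and rc_AI179610_at −0.037 (without TEN-160 replicate 2) to 0.74. With the values as deposited, J02722cds_at had 0.0013 for low energy without ethanol, and rc_AI179610_at 0.21 for both together; there TEN-220 replicate 1 stays unscaled, and the median of all changes moves to 0.70 and 0.62. Unless stated, the cause was not tested. Whether replicate numbers pair the samples is not in the labels. Deviations of same-numbered arrays correlated at −0.112 to 0.0853, and 5 of 13 arrays correlated best with their own number. With 3 or 4 arrays in a group, these values cannot decide it. The block also drops EtOH-160 replicate 4, alone in its number.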
